A study of Rattus norvegicus with 3 samples.

Results

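The fibrillar collagens and the enzymes that shape and crosslink them were followed in the rat osteosarcoma line COS1NR, the rat malignant fibrous histiocytoma (MFH) line MFH1NR and rat mesenchymal stem cells (MSCs). The genes were listed by name: the fibril chains Col1a1, Col1a2, Col3a1, Col5a1 and Col5a2, the lysyl hydroxylases Plod1 and Plod2, the collagen chaperone Serpinh1 and the lysyl oxidases Lox and Loxl1. Of these 10 genes, 8 had a probe whose RefSeq accession could be matched to the gene's symbol, among 13301 genes so named on the array, and they were read by 14 probes. Col5a2 and Lox were not analysed here. Every one of the 8 genes was well above background in MSCs and in COS1NR, and all except Plod2 were also well above background in MFH1NR.

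All cells came from the F344 strain. COS1NR and MFH1NR were grown from tumors that the chemical 4-HAQO had induced, and both lines carry a p53 mutation according to the methods. MSCs were isolated from femur bone marrow by their attachment to plastic and were not sorted on surface markers, and their medium held more serum than that of the sarcoma lines. RNA of each cell type was labeled with Cy3 and hybridized to 1 whole rat genome array of Agilent, so each group is 1 sample, no spread between cultures was measured and no difference could be tested.

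Fibrillar collagens are the rope-like proteins that give bone, tendon and loose connective tissue their strength, and stromal cells and osteoblasts are their main producers. Type I collagen, the chief protein of bone, is normally built from the chains of both Col1a1 and Col1a2, while types III and V join it in mixed fibrils and type V helps to start them. Inside the endoplasmic reticulum (ER) the chains are hydroxylated and held in shape by chaperones, and outside the cell their ends are trimmed and lysyl oxidases convert lysines so that neighbouring molecules become crosslinked.

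Each array had 43379 spots that were not controls, and between 56.6% and 59.7% of them were well above background by the scanner software's own call. No spot was saturated. Levels are given below as processed intensities, in arbitrary units that are not scaled between arrays, and ratios were taken after dividing each intensity by the 75th percentile of its array, which came to 589 for MSCs, 774 for COS1NR and 994 for MFH1NR. Both sarcomas were hybridized on 1 slide and MSCs on a second, and wherever MSCs are compared below, the slide and the cells cannot be told apart. The software's own error for a log2 ratio of bright spots was 0.20, and it covers neither cultures nor labeling. In such bulk RNA, fewer cells of a type and less RNA per cell cannot be told apart.

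All 8 genes were lower in both sarcomas than in MSCs by their brighter probe (the one with the higher mean log2 intensity over the 3 arrays, called the first probe here), although Col1a1 was above MSCs without scaling in both lines, and in MFH1NR also with quantile normalization and spike-in scaling, and Loxl1 was above MSCs in MFH1NR without scaling and with spike-in scaling. The log2 ratios in COS1NR ranged from -9.09 to -0.33. The 2 sarcoma lines differed in how low single genes were, while Col3a1, Col5a1, Serpinh1 and Plod2 were at least 2-fold lower in both. In COS1NR the deepest differences were those of Col1a2, Col3a1 and the crosslinking enzyme Loxl1, whereas in MFH1NR Plod2 was not well above background and Loxl1 was near the level of MSCs. Col1a1, the partner chain of Col1a2, differed little from MSCs in either line by its first probe.

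Counts at a 2-fold limit were set beside those of all genes. In COS1NR, 6 of the 8 genes were at least 2-fold lower than in MSCs, against 22.3% of the 10009 genes used (genes whose first probe had that call on 1 array or more), and 0 were at least 2-fold higher, against 21.7%. In MFH1NR, 5 of the 8 were at least 2-fold lower, against 23.2%, and 0 were higher, against 20.8%. Col3a1, Col5a1, Serpinh1 and Plod2 were lower in both lines, which made 4 of 8 against 14.6% of all genes, and 0 were higher in both, against 12.2%. The median log2 ratio of the 8 genes was -3.03 in COS1NR and -1.88 in MFH1NR, where the medians of all genes used were 0.11 and 0.01. With the second probe where a gene had one, 8 of 8 genes were at least 2-fold lower in COS1NR and 7 of 8 in MFH1NR, against 22.7% and 23.5% of 9774 genes read in the same way. The medians of the 8 genes were then -3.96 in COS1NR and -3.8 in MFH1NR. By the first probe without scaling they were -2.64 and -1.12, where those of all genes were 0.51 and 0.77. Between the lines, 3 of 8 were at least 2-fold higher in MFH1NR than in COS1NR (Col1a2, Col3a1 and Loxl1), against 13.9%, and 2 of 8 were lower (Plod1 and Plod2), against 16.0%. Plod1 was within 2-fold between the lines without scaling and with spike-in scaling, which left 1 of 8.

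**Figure D1:**
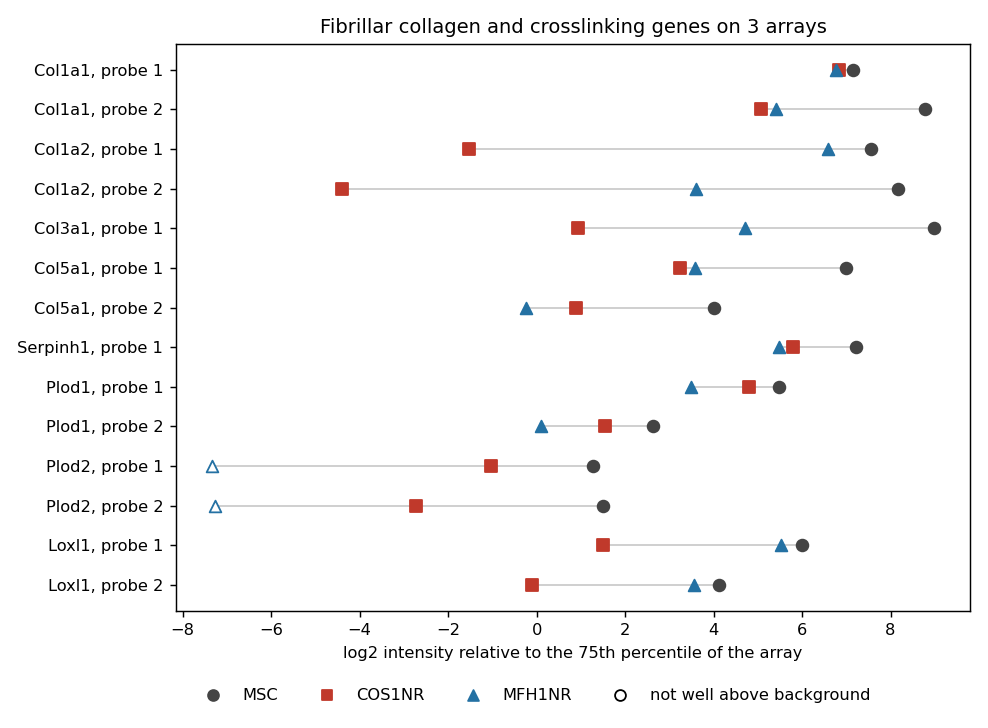
Intensity of each of the 14 probes in MSCs (grey circles), COS1NR (red squares) and MFH1NR (blue triangles), as log2 relative to the 75th percentile of the array, 1 array each. On this scaled axis MSCs have the highest point in every row, COS1NR lies far to the left for Col1a2, Col3a1 and Loxl1, and the open triangles of Plod2 mark spots not well above background in MFH1NR. Only points within a row can be compared, since probes differ in brightness.

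The sequences before 3 of these genes are shown to set the contrast of the lines beside the DNA before their annotated starts: Col1a2 and Loxl1, which were low in COS1NR and less than 2-fold below MSCs in MFH1NR by the first probe, and Plod2, which was low in MFH1NR. They were read from RefSeq windows of the rat assembly GRCr8, which matched 7 of the 10 genes. Windows for Col1a1, Col3a1 and Lox were not matched. Positions count back from the annotated start, and motifs searched on both strands are in capitals. They were TATAAA, the letters of a TATA box, then CCAAT, bound by NF-Y, then GGGCGG, bound by factors of the Sp family, and lastly ACGTG, the core bound by hypoxia-inducible factors among others. No motif overlapped another. For Col1a2 the first 100 bases of the 250-base window are printed (chr4:33518307-33518406, + strand, -250 to -151), because the annotated start there lies on an ATG, so that part of the window may already be transcribed. The windows of Loxl1 (chr8:67612225-67612474, - strand) and Plod2 (chr8:101964068-101964317, + strand) are whole.
Col1a2: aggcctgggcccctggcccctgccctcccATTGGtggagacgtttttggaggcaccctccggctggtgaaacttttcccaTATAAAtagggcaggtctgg
Loxl1: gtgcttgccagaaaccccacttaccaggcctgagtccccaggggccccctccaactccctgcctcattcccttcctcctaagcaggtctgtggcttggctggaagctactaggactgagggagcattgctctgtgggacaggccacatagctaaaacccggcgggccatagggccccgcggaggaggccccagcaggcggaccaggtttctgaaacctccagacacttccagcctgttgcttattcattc
Plod2: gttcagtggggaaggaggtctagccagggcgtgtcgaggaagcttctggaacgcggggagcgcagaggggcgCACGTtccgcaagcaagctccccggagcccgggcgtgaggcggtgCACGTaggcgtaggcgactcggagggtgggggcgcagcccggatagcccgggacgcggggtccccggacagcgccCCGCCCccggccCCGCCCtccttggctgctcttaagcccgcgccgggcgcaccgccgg
All 250 bases of each window were searched. In that of Col1a2, the matches lie within the printed stretch, with TATAAA at -170 to -165, and CCAAT on the reverse strand (printed ATTGG) at -221 to -217. The Plod2 window holds GGGCGG on the reverse strand (printed CCGCCC) at -58 to -53 and at -46 to -41, and ACGTG on the reverse strand (printed CACGT) at -178 to -174 and at -133 to -129. None of the 4 motifs was found in the Loxl1 window. Over 33469 windows of the same length, TATAAA was found in 12.9%, CCAAT in 34.0%, GGGCGG in 30.5% and ACGTG in 16.6%. The CG pair, the site of DNA methylation, occurred 12 times in the 250 bases of Col1a2, 5 times in those of Loxl1 and 32 times in those of Plod2, against a median of 5 over all windows, and 95.9% of windows had fewer than Plod2. Among the other matched windows, GGGCGG was found in those of Col5a1, Plod1 and Serpinh1, and TATAAA in that of Col1a2 alone. The motifs are letters only, and factor binding and methylation were not measured.

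Col1a2 encodes the alpha-2 chain of type I collagen. Its first probe read 110949 in MSCs, 268 in COS1NR and 94925 in MFH1NR. COS1NR was thus far below both other cell types, and the scaled ratio of MSCs to COS1NR was 544-fold, while MFH1NR was 1.97-fold below MSCs, at the edge of the 2-fold limit, at a log2 ratio of -0.98. That ratio moved with the scaling, to -0.23 without it, -0.39 with quantile normalization and -0.46 with spike-in scaling, and it was -1.02 with the normexp correction. The second probe read 169669 in MSCs, 36.7 in COS1NR and 12125 in MFH1NR. That COS1NR spot was close to the lowest intensity called well above background on its array, 29.4. By this probe MSCs were 6080-fold above COS1NR and 23.6-fold above MFH1NR. The distance between the lines was nearly equal for both probes, 276-fold and 257-fold higher in MFH1NR. By the first probe, only 0.38% of the genes used had a lower ratio of COS1NR to MSCs than Col1a2, and its ratio of MFH1NR to COS1NR was above that of 99.7% of genes.

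Col1a1 encodes the alpha-1 chain that pairs with it. Its first probe gave 83826 in MSCs, 87747 in COS1NR and 108611 in MFH1NR. After scaling, the ratios to MSCs were 0.797 for COS1NR and 0.768 for MFH1NR. The second probe gave 257063 in MSCs against 26104 and 42449 in the sarcomas, in the same order, which made ratios of 0.0773 and 0.0978. The probes therefore differed on how far the sarcomas lay from MSCs, and agreed that the lines lay close to each other, with ratios of MFH1NR to COS1NR of 0.963 and 1.27.

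The type I chains were set against each other by subtracting the log2 ratio of Col1a2 from that of Col1a1, over the 4 pairings of their probes. For COS1NR against MSCs, the difference was 5.40 to 12.24, with Col1a2 the lower. For MFH1NR against COS1NR the sign turned, with values of -8.16 to -7.67. For MFH1NR against MSCs the difference ran from -2.37 to 4.18, so its sign depended on the probe. The lower ratio of Col1a2 than of Col1a1 in COS1NR, against both other cell types, was thus seen with every pairing, and no such statement can be made for MFH1NR against MSCs.

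Both type I genes stood out in how much their own probes disagreed. For the 1891 genes whose 2 probes were both well above background everywhere, the probes' log2 ratios of COS1NR to MSCs differed by a median of 0.28, and for MFH1NR to MSCs by a median of 0.31. Those of Col1a1 differed by 3.37 and 2.97, which 0.317% and 0.582% of the genes exceeded, and those of Col1a2 by 3.48 and 3.58, which 0.159% and 0.264% exceeded. Between the sarcomas, which shared a slide, the differences were 0.39 for Col1a1 and 0.10 for Col1a2, against a median of 0.15. The probes of Col5a1 differed there by 1.46, which 1.75% of the genes exceeded. The cause of the disagreement was not tested.

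Col3a1 encodes the single chain of type III collagen, found with type I in skin, vessels and healing tissue. Its probe gave 299640 in MSCs, 1484 in COS1NR and 25824 in MFH1NR. The 3 cell types lay far apart, with MSCs 265-fold above COS1NR and 19.6-fold above MFH1NR, and MFH1NR 13.5-fold above COS1NR. Among the genes used, 0.749% had a lower ratio of COS1NR to MSCs. Col3a1 had 1 probe, so no second reading was at hand.

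Col5a1 encodes the chain of type V collagen that limits the width of fibrils. Its first probe gave 75274 in MSCs, 7292 in COS1NR and 12006 in MFH1NR, so that both sarcomas were low, by 13.6-fold and 10.6-fold. The second probe gave 9573, 1423 and 850 in the same order, or 8.83-fold and 19.0-fold below MSCs. The order of the 2 lines turned with the probe, with log2 ratios of MFH1NR to COS1NR of 0.36 and -1.11, so no order between them can be given.

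**Figure D2:**
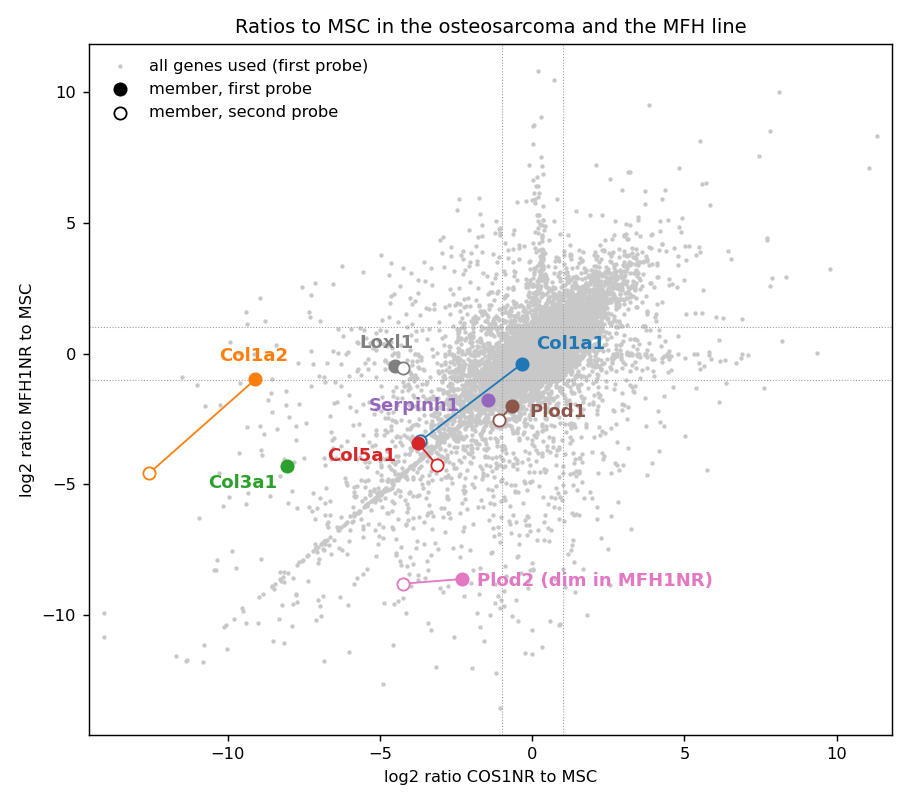
Log2 ratio of COS1NR to MSC (horizontal) against log2 ratio of MFH1NR to MSC (vertical) for the 10009 genes used (grey) and the 8 collagen and crosslinking genes (colored, lines join the probes of 1 gene, dotted lines mark 2-fold). Both axes share the MSC array. Col1a2 and Loxl1 lie far left of most genes by the first probe, with Loxl1 at -0.47 on the vertical axis and Col1a2 at -0.98, next to the 2-fold line, Plod2 lies low, and Col1a1 moves along the diagonal from 1 probe to the other.

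Serpinh1 encodes HSP47, a chaperone of the ER that binds folded procollagen. Its 1 probe read 88729 in MSCs, 42990 in COS1NR and 44315 in MFH1NR. The sarcomas lay near each other, with a log2 ratio of MFH1NR to COS1NR of -0.32, and MSCs were 2.71-fold above COS1NR and 3.38-fold above MFH1NR.

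Plod1 encodes the lysyl hydroxylase that acts mainly on the helix of collagen. Its first probe gave 26237 in MSCs, 21609 in COS1NR and 11077 in MFH1NR. The second gave 3682, 2271 and 1063. Both probes put MFH1NR lowest, at ratios to MSCs of 0.25 and 0.171. COS1NR lay between, at ratios of 0.627 and 0.47, on either side of the 2-fold limit.

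Plod2 encodes the lysyl hydroxylase that modifies the ends of the chains, a step that sets the type of crosslink formed later. Its first probe gave 1417 in MSCs and 378 in COS1NR, and its second 1678 and 117. In MFH1NR the spots read 6.14 and 6.41 and were not well above background, so only bounds can be given. MFH1NR was at least 79.5-fold lower than MSCs by the first probe and at least 94.2-fold lower by the second. Against COS1NR it was at least 16.1-fold and at least 5.01-fold lower. These bounds hold for the scaled arrays, and without scaling they were 47.1-fold and 55.8-fold against MSCs and 12.6-fold and 3.9-fold against COS1NR. With spike-in scaling they were 55.6-fold and 65.8-fold against MSCs and 9.32-fold and 2.9-fold against COS1NR. With a floor at the highest background limit, the log2 ratios by the first probe were -5.99 to MSCs and -3.68 to COS1NR, and with the normexp correction -5.28 and -3.14. COS1NR was itself below MSCs, by 4.93-fold and 18.8-fold. MFH1NR was lowest for both hydroxylases by every probe, the reverse of the order seen for Col1a2, Col3a1 and Loxl1.

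Loxl1 encodes an oxidase that starts crosslinks in collagen and above all in elastin. Its first probe gave 37626 in MSCs, 2201 in COS1NR and 45749 in MFH1NR. The second gave 10238, 718 and 11721. Both probes placed COS1NR far below the other cells, by 22.5-fold and 18.7-fold against MSCs. MFH1NR was close to MSCs, with ratios of 0.72 and 0.678, and it was 16.2-fold and 12.7-fold above COS1NR. The 2 probes of Loxl1 differed in their log2 ratios by 0.26, 0.09 and 0.35 for COS1NR to MSCs, MFH1NR to MSCs and MFH1NR to COS1NR, in this order, and in the comparisons with MSCs this is less than for either type I gene.

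**Figure D3:**
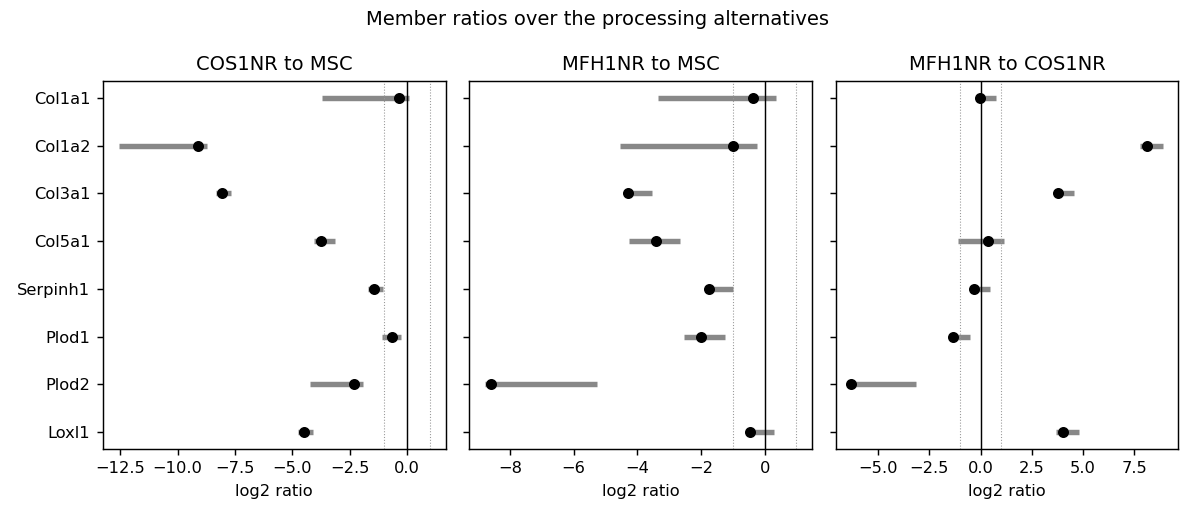
Log2 ratios of the 8 genes by the first probe (points) and their range over the processing alternatives (grey bars), for COS1NR to MSC, MFH1NR to MSC and MFH1NR to COS1NR, with dotted lines at 2-fold. The bars of Col1a1 and Col1a2 against MSC are long because the second probe is one of the alternatives, and the bar of Plod2 for MFH1NR to MSC, whose spots in MFH1NR were not well above background, ends at -5.28, with the normexp background correction.

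The other steps of the collagen route were read from 7 lists with 64 genes, of which 40 were named on the array and used. In COS1NR, 26 of the 40 were at least 2-fold lower than in MSCs and 1 was higher (P3h2), and in MFH1NR 30 were lower and 1 was higher (Tmem38b, an ion channel of the ER, at a log2 ratio of 1.04). A set of 22 genes was lower in both lines, where the shares over all genes, given above, were 22.3%, 23.2% and 14.6% for COS1NR, MFH1NR and both, and 0 were higher in both. The median log2 ratios of the 40 genes were -1.49 in COS1NR and -1.65 in MFH1NR.

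In the ER, 11 of 15 genes of hydroxylation and folding were at least 2-fold lower in COS1NR and 12 of 15 in MFH1NR. The prolyl 4-hydroxylase subunits P4ha1, P4ha2 and P4ha3, whose hydroxyprolines keep the helix stable, had log2 ratios of -1.32, -1.26 and -1.97 in COS1NR and -2.14, -1.06 and -3.10 in MFH1NR. P4hb, the other subunit of that enzyme, was at 0.08 in COS1NR and -1.34 in MFH1NR. The third lysyl hydroxylase, Plod3, was at -1.75 and -1.67, close to Serpinh1. The prolyl 3-hydroxylases P3h1 and P3h3 were at -1.71 and -4.95 in COS1NR and at -1.64 and -1.66 in MFH1NR, and P3h4, which lacks the enzyme activity and works with Plod1, was at -3.49 and -1.15.

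The peptidyl-prolyl isomerase Fkbp10, a partner of HSP47 and of lysyl hydroxylase 2, had the deepest difference in this list. It read 12676 in MSCs, 8.02 in COS1NR, where it was not well above background, and 9433 in MFH1NR. COS1NR lay at least 567-fold below MSCs and at least 250-fold below MFH1NR, where the second probe gave bounds of 117-fold and 48.6-fold. Fkbp14, a related isomerase, was at -2.12 in COS1NR and -1.12 in MFH1NR. P3h2 was higher in COS1NR, reading 829 there, 79.5 in MSCs and 7.04 in MFH1NR, the last not well above background.

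For export from the ER, 1 of 5 genes was past 2-fold in COS1NR (Sec23a, of the vesicle coat, at -1.21) and 1 of 5 in MFH1NR (Trappc2, at -1.82), both of them lower, and 0 were past it in both lines. Trappc2 in COS1NR lay at the limit, with a log2 ratio of -1.0 after rounding, and was not counted. Creb3l1, a transcription factor that drives collagen production in bone, was at -0.99 and -0.52. Of the 8 listed genes of propeptide removal, 3 were used, of which 3 were lower in COS1NR and 2 in MFH1NR. Bmp1, the protease that cuts the carboxyl propeptide, had log2 ratios of -2.87 and -2.69, and its other probes gave -2.81 and -2.89 in COS1NR. Its helper Pcolce was at -1.84 in COS1NR and -0.33 in MFH1NR. Tll1, a protease related to Bmp1, read 60.2 in MSCs and was not well above background in the sarcomas, with bounds of at least 2.69-fold for COS1NR and at least 3.38-fold for MFH1NR.

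Of the other crosslinking enzymes, 3 of 4 were at least 2-fold lower in COS1NR and 4 of 4 in MFH1NR. Loxl2 was at -3.0 and -3.09. Loxl3 read 3587 in MSCs, 72.6 in COS1NR and 2029 in MFH1NR. Its log2 ratios were -6.02 and -1.58, so that like Loxl1 it was lowest in COS1NR. The transglutaminase Tgm2, which crosslinks glutamine to lysine, was lowest in MFH1NR, at -1.18 in COS1NR and -4.19 in MFH1NR.

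Among fibril chains outside the named 5, Col5a3 read 26241 in MSCs, 163 in COS1NR and 744 in MFH1NR, or -7.73 and -5.90 in log2 ratio. Col11a2, a chain of cartilage fibrils, was at -1.66 and -2.17, and 2 of 3 such genes were lower in both lines. Of the 11 listed fibril-associated and beaded-filament genes, 3 were used, and all 3 were lower in both lines by the first probe. Col14a1 was not well above background in either line, with bounds of at least 31.1-fold lower for COS1NR and 39.1-fold for MFH1NR by its first probe and of 12.3-fold and 15.5-fold by its second, and Col6a2 was at -1.74 and -3.46. Col9a1 was at -4.0 and -3.61 by its first probe and at 1.45 and 1.14 by its second, so its direction depended on the probe.

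Of the 7 genes of collagen receptors and breakdown, 3 were lower in COS1NR and 6 in MFH1NR. Ddr2, a receptor kinase that fibrillar collagen switches on, was at -1.52 and -1.96. Ctsk, the collagen-cutting protease best known from osteoclasts, read 14774 in MSCs, 47.0 in COS1NR and 7209 in MFH1NR. These are log2 ratios of -8.69 and -1.79. The integrin gene Itga10 was dim throughout, with 41.7 in MSCs. It is counted as lower by its measured values, but its bounds were at least 1.86-fold for COS1NR and at least 2.34-fold for MFH1NR.

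**Figure D4:**
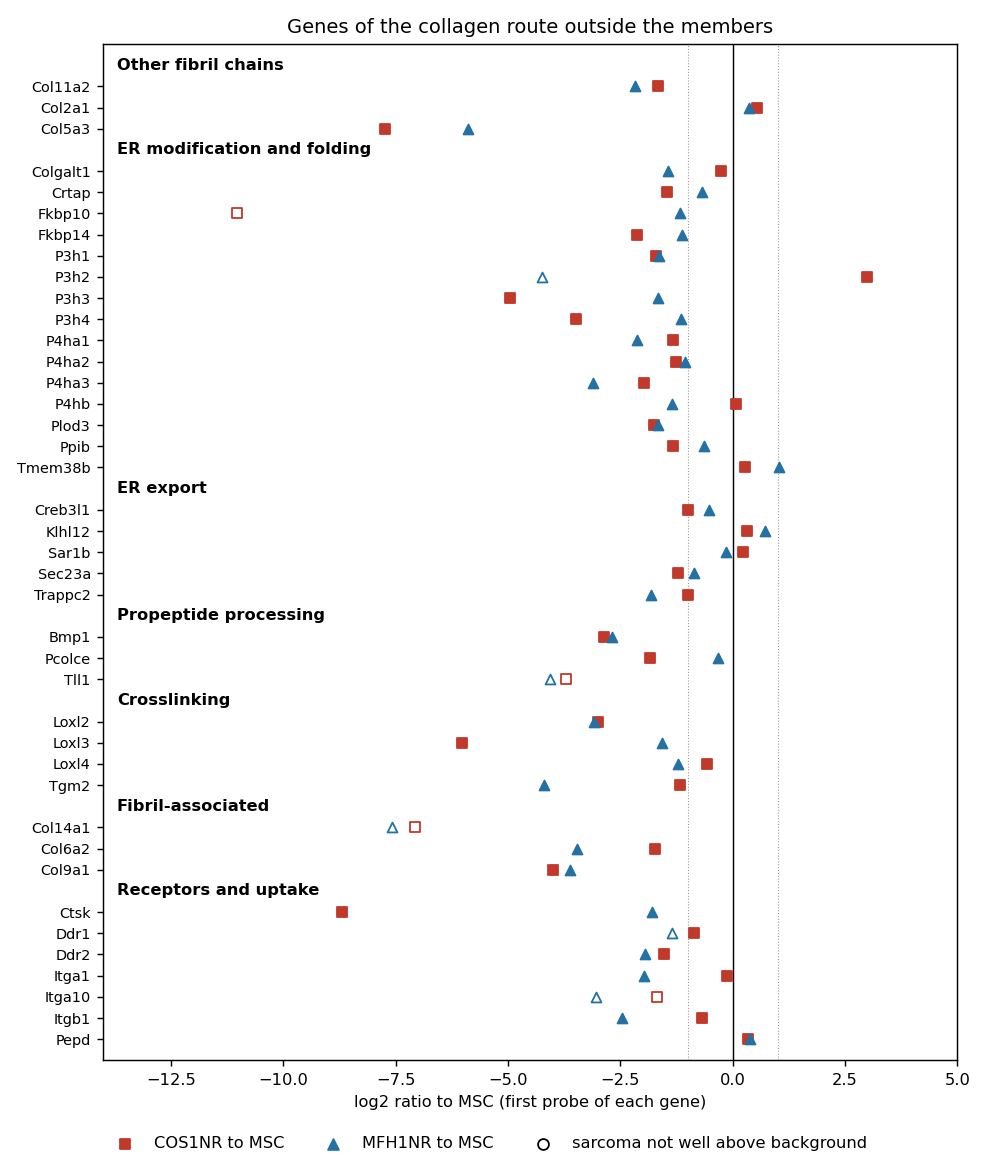
Log2 ratios to MSC of 40 further genes of the collagen route, grouped by step, in COS1NR (red squares) and MFH1NR (blue triangles), with open symbols where the sarcoma was not well above background and dotted lines at 2-fold. Most symbols lie left of 0 in both lines, Col5a3, Fkbp10, Loxl3 and Ctsk lie far left in COS1NR, and P3h2 lies on opposite sides in the 2 lines.

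The genes whose pair of ratios lay nearest to the median of the fibril chains were sought in a pool of 7890 genes. All were well above background in the 3 cell types, and the measure was the straight-line distance between the log2 ratios of COS1NR and MFH1NR to MSCs. The 4 named chains had medians of -5.91 and -2.19, a point at which none of the chains lay. Their own pairs were -0.33 and -0.38 for Col1a1 and -9.09 and -0.98 for Col1a2. Those of Col3a1 and Col5a1 were -8.05 and -4.29, and -3.76 and -3.4. Nearest to the median point were Cd248 (endosialin, a surface protein of stromal cells) at a distance of 0.19, then Ccn2, Sphk1, Slc7a3 and Lxn at distances of 0.61 to 0.76. Nearest to Col1a2 was Srpx2 at 1.39, with ratios of -8.10 and -1.96. Rcn3 followed at 1.73, the gelatinase Mmp2 at 1.82, Npdc1 at 1.85 and Grem1 at 1.95. Nearest to Loxl1 were Plp2 at 0.26, Rab26 at 0.36, Apobec3 and Pdgfra, a receptor of stromal cells, both at 0.39, and Eva1c at 0.42. The nearest to Serpinh1 were within 0.06 to 0.08, where genes lie densely. These likenesses rest on 3 arrays, with the MSC array in both ratios, and on the choice of probe. With the second probes of the chains, their medians were -5.87 and -4.27, Cd248 lay at a distance of 2.25, and 0 of the 5 nearest genes were shared with those named for the first probes.

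Markers of the cells that such cultures can hold were read on the same arrays. All 14 macrophage and leukocyte markers were well above background in MSCs and at least 2-fold lower in both sarcomas, and their intensities summed to 114197 in MSCs, 10013 in COS1NR and 5234 in MFH1NR. Of these, Ptprc, Lyz2, C1qa, Cd163, Itgam and Spi1 were not well above background in either line. Of 11 fibroblast and stromal markers, 7 were lower in COS1NR and 5 in MFH1NR, with median log2 ratios of -2.58 and -0.83 and summed intensities of 320710, 200073 and 125916 in MSCs, COS1NR and MFH1NR. S100a4 alone gave 174007, 170180 and 52317 of these sums, and without it they were 146703, 29893 and 73600, so that the order of the lines turned. Dcn, a small proteoglycan on collagen fibrils, was lower in MFH1NR by at least 1240-fold, while in that line Thy1 and Fap were well above background, which they were not in COS1NR. Twist1 and Twist2 were higher in both lines, and Fbln1, a matrix glycoprotein gene, in MFH1NR, with log2 ratios there of 2.03 and 1.81 by its probes. Of 8 osteoblast markers used, 7 were lower in COS1NR and 4 in MFH1NR, and Sp7 and Spp1 were higher in MFH1NR. Sp7, a defining osteoblast factor, was not well above background in MSCs or in COS1NR, the line labeled osteosarcoma, and read 108 in MFH1NR. Dlx5 was not well above background in COS1NR either, and Dmp1 in neither sarcoma line. Ibsp, the bone sialoprotein gene, ran the other way, reading 491 in COS1NR, 51.7 in MFH1NR and 5269 in MSCs, and was 12.2-fold higher in COS1NR than in MFH1NR. The sums for osteoblast markers were 46010, 23873 and 152256, the last mostly Spp1 at 149222. Endothelial markers summed to 399, 133 and 110, with 2 of 3 used lower in each line and Pecam1, Tek and Emcn not well above background anywhere. Chondrocyte markers, which include Col2a1 of the collagen lists, summed to 844, 81.7 and 124, again with 2 of 3 lower in each line. The part of cell makeup in the collagen differences was not tested.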

How the data were processed

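RNA of MSCs, COS1NR and MFH1NR was measured on 1 Agilent whole rat genome array each, with a single color. Per the file headers, the authors deposited processed intensities from Agilent Feature Extraction, background-subtracted within each array and not scaled between arrays. The software version is 10.5.1.1 in the headers and 9.1 in the submitters' processing notes. The deposited series table holds the same intensities. The labels name an mRNA isolation kit and the methods another RNA kit.

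Control spots and outlier spots (187 to 217 per array, none of the 14 probes of the 8 genes) were left out, spots of a probe were averaged in log2, and the 75th percentile of the array was subtracted. Probes were named by matching RefSeq accessions to a table of rat genes (16745 of 17742 probes with a curated mRNA accession). A gene was read by its first probe, and 2-fold counts have no test, since there was 1 array per cell type. A spot not well above background gave a bound against the lowest intensity with that call on its array, 18.0, 29.4 and 30.1 in MSCs, COS1NR and MFH1NR. The number of arrays limits the precision.

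The genes and the lists were chosen with earlier results of these data known. Named are the 8 genes with every probe, marker genes and the 5 genes nearest to the median of the chains. Also named are genes of the 7 collagen lists at least 2-fold from MSCs in the same direction in both lines or in opposite directions. Pcolce, P4hb, Creb3l1, Sec23a, Trappc2 and Tmem38b were added after their values were seen. Likeness to Lox was planned but not analysed here, and likeness to Col1a2, Loxl1 and Serpinh1 was chosen after values were seen. Alternatives were no, median, quantile and spike-in scaling (7 probes), a floor at the highest background limit, the mean of all probes, the next probe, other filters, outlier spots kept, a 3-fold limit and the series table. Normexp with an offset of 50 used the median spot signal, as the mean was not among the columns used, and like the next probe for counts it was chosen after seeing the data. Also added then were the chains' second probes for likeness, the stromal sum without S100a4 and bounds of Plod2 without scaling and with spike-in scaling. The counting steps were tested on simulated data. The work used Python 3.11.15, numpy 2.4.6, pandas 2.3.3, matplotlib 3.10.9, R 4.3.3 and limma 3.58.1.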

Additional observations from a re-analysis of the deposited data

Results flagged for a closer look

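P3h2, a prolyl 3-hydroxylase of the ER, lay on opposite sides of MSCs in the sarcoma lines, at a log2 ratio of 2.99 in COS1NR but of -4.25 in MFH1NR, where its spot was not well above background and the bound was at least 4.46-fold lower. Spp1, the bone matrix protein osteopontin, was at -1.09 in COS1NR and at 1.29 in MFH1NR on the same scale. Without scaling, Spp1 read 36180 in MSCs, 22285 in COS1NR and 149222 in MFH1NR, so COS1NR was then less than 2-fold below MSCs. The differences between the lines were not tested, as each rests on 1 array per cell type.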

How the results depend on the processing

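Of 24 ratios (8 genes in 3 comparisons), 16 were past 2-fold, all 16 kept their sign under every alternative run, and 15 stayed past 2-fold. The exception was Plod1 in MFH1NR against COS1NR, whose log2 ratio of -1.33 became -0.96 without scaling and -0.53 with spike-in scaling. Serpinh1 in MFH1NR against MSCs lay at the limit without scaling, at -1.0 after rounding. Keeping outlier spots, the other filters and the series table could not move these ratios, and the floor moved only those of Plod2 in MFH1NR. The count of genes lower in MFH1NR than in COS1NR by 2-fold or more, 2 in the report, became 1 without scaling, 1 with spike-in scaling, 1 with a 3-fold limit and 1 where all arrays had to be well above background, which leaves out Plod2. The other 68 of 72 count settings were within 1.5 times.

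Ratios under 2-fold could change sign: Col1a1 reached 0.07 in COS1NR and 0.37 in MFH1NR without scaling (0.10 in MFH1NR with quantile normalization and 0.14 with spike-in scaling), Loxl1 0.28 in MFH1NR without scaling and 0.04 with spike-in scaling, and between the lines Col1a1 reached 0.74 and Serpinh1 0.47 with spike-in scaling, while Col5a1 ran from -1.11 by the second probe to 1.15 with spike-in scaling. Spike-in scaling moved the median of all genes to 0.68 for MFH1NR against COS1NR, and no scaling moved it to 0.51 in COS1NR and 0.77 in MFH1NR against MSCs. Plod2 has only bounds in MFH1NR, which moved as given in the report. No paired analysis was possible because there was 1 array per cell type.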
